A study of Mus musculus with 6 samples.

Results

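The intercalated disc is the end-to-end contact between heart muscle cells. The 10 genes described here encode proteins of its 3 kinds of junction. Gja1, Gja5 and Gjc1 are gap junction genes, Cdh2 and Ctnna3 belong to the adherens junction, and Dsp, Dsg2, Dsc2, Pkp2 and Jup to the desmosome. They were taken by gene symbol from a table of 56691 gene rows, each symbol named 1 row, and all 10 passed the filter on low counts with 15429 genes in all.

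RNA was sequenced from primary cardiomyocytes of neonatal mice that had been given an adenovirus. The vector group (Ad-cTNT vector, genotype Control) received the virus without an insert, and the HMGB2 group (Ad-cTNT-HMGB2, genotype HMGB2 overexpression) received it with HMGB2, a chromatin protein that bends DNA. Both groups thus carry the virus, and its cardiac troponin T (cTNT) promoter is active in cardiomyocytes. RNA was extracted in bulk from the primary cultures, with no sorting step described. There were 3 libraries per group, with 12498215 to 16618365 counts each, and the labels used here give no strain, age in days, virus amount or time of collection. Expression is given in CPM, a gene's count divided by a library size adjusted with the trimmed mean of M values (TMM) and set to a common scale. Hmgb2 held 46.8, 44.8 and 36.3 CPM in vector 1, 2 and 3, against 175, 196 and 182 CPM in HMGB2 1, 2 and 3, a 4.33-fold difference (edgeR adjusted p = 1.89e-06).

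Gap junctions are channels built from connexins that pass ions from cell to cell and carry the electrical wave. Adherens junctions join the actin filaments of neighbouring cells through cadherins and catenins, and desmosomes join their intermediate filaments through desmosomal cadherins, plakophilin, plakoglobin and desmoplakin. In the heart the components of adherens junctions and desmosomes are mixed in shared contact zones, and inherited defects of desmosomal genes are a known origin of arrhythmogenic cardiomyopathy.

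Vector 1 and HMGB2 3 stood apart from the other libraries of their groups. Restricted to genes that averaged at least 20 counts in the pair compared, chi-square per degree of freedom was 18.6 and 20.6 between vector 1 and the other vector libraries but 2.77 between vector 2 and 3. Between HMGB2 3 and the other HMGB2 libraries it was 15.4 and 14.3, against 1.995 between HMGB2 1 and 2. Values without both libraries are given with the junction genes and with the lists whose counts they move.

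Of the 10 junction genes, 8 rose with HMGB2 and the other 2, Cdh2 and Pkp2, did not pass the test (edgeR quasi-likelihood test, adjusted p under 0.05 over all genes). Over all genes tested, 14.4% were called higher and 10.8% lower, 25.2% in all. The median log2 fold change was 0.70 for the 10 genes and -0.0022 for all genes tested. By kind of junction, all 3 gap junction genes rose, as did 1 of 2 adherens genes and 4 of 5 desmosome genes. The medians were 0.68, 0.36 and 0.71 on the log2 scale. For 8 genes the 3 HMGB2 libraries lay above the 3 vector libraries, an arrangement found in 21.6% of all genes tested, and 40.5% of all genes had groups that did not overlap in one direction or the other. The count of 8 was the same in each of 15 other analyses, among them those without any 1 library and without vector 1 and HMGB2 3 together.

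**Figure D1:**
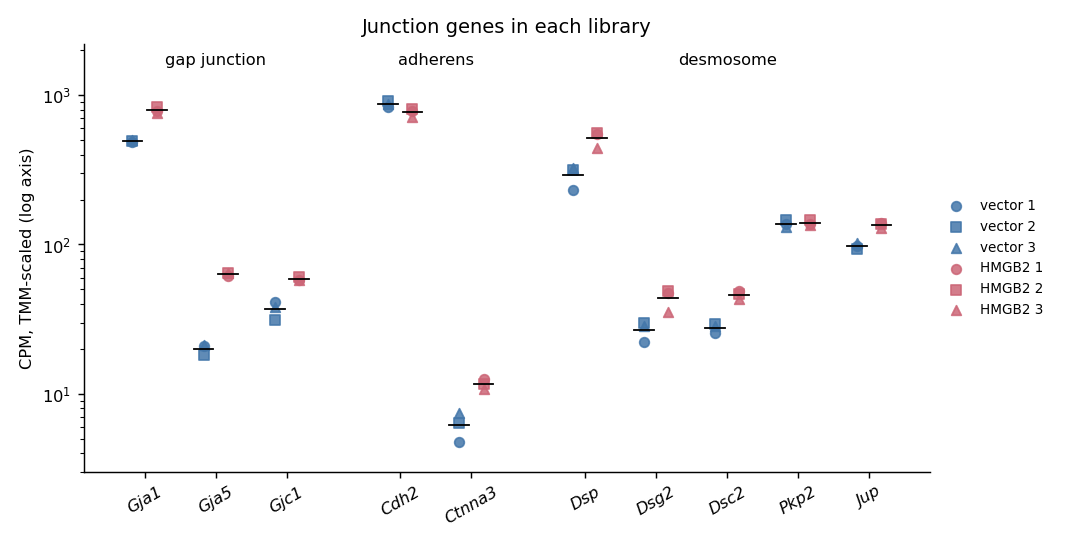
Expression of the 10 junction genes in each library, in CPM on a log axis, with blue symbols for vector and red for HMGB2, a symbol shape for each replicate and a black line at each group mean. The groups overlap for Pkp2, Cdh2 is lower in all 3 HMGB2 libraries, and the other 8 genes are higher in all 3.

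Among the gap junction genes, Gja5 had the largest fold change of the 10. It encodes Cx40, the connexin of atrial muscle, of the conduction system and of arterial endothelium (ENSMUSG00000057123, GRCm38 chromosome 3, 96904693 to 97077416). The vector libraries held 20.8, 18.2 and 21.1 CPM and the HMGB2 libraries 61.5, 64.0 and 64.3 CPM. All HMGB2 libraries were thus about equally high and far above the vector libraries. The means were 20.02 ± 1.60 and 63.3 ± 1.54 CPM (SD, n = 3 each), a 3.16-fold rise (log2 fold change 1.66, SE 0.09, edgeR adjusted p = 2.28e-06). Across the 15 other analyses the fold lay between 2.71 and 3.24. The lowest came from a per-length scale with 1 added, which shrinks ratios of low levels (log2 fold change 1.44), and the next lowest log2 fold change was 1.594, without vector 2. Part of an annotated Gja5 transcript, 856 bases, is 99.4% identical to Zfp697, and 165 exon bases overlap Gpr89 on the other strand. Depending on the counting settings, which are not stated, reads of these stretches may be lost or counted for the other gene. Zfp697 had 43.0 ± 8.97 and 34 ± 2.15 CPM and Gpr89 24.8 ± 1.35 and 26.3 ± 1.96 CPM in vector and HMGB2, and neither passed the test.

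Gja1 encodes Cx43, the main connexin of working ventricular muscle (ENSMUSG00000050953, chromosome 10, 56377330 to 56402513). It was at 485, 495 and 501 CPM in the vector libraries and at 784, 834 and 756 CPM in the HMGB2 libraries, with no overlap and little spread within either group. It rose 1.60-fold from 494 ± 8.30 to 791 ± 39.6 CPM (log2 fold change 0.68, SE 0.07, edgeR adjusted p = 0.000122). Gjc1 encodes Cx45, which is found in early heart muscle and in the nodes (ENSMUSG00000034520, chromosome 11, 102799579 to 102819700). Its vector libraries spread over 41.4, 31.4 and 38.2 CPM, below the 57.6, 61.0 and 58.1 CPM of the HMGB2 libraries. Gjc1 rose 1.59-fold (log2 fold change 0.67, SE 0.10, edgeR adjusted p = 0.00137).

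Among Gja1, Gja5 and Gjc1, the makeup of the connexin transcripts shifted toward Gja5. On a per-length scale (FPKM, counts per kilobase of annotated exon, scaled to the library total), Gja5 made up 6.12%, 5.48% and 6.10% of the summed Gja1, Gja5 and Gjc1 level in the vector libraries and 10.8%, 10.6% and 11.6% in the HMGB2 libraries. The groups did not overlap, and the difference of 5.13 percentage points had the smallest two-sided p that 3 against 3 libraries can give (exact permutation p = 0.1). The share of Gja1 was 81.6% ± 1.89 with the vector and 77.2% ± 0.716 with HMGB2, and that of Gjc1 was 12.5% ± 1.55 and 11.8% ± 0.215, where the groups overlapped. Gja4, left out of this sum, was above Gja1 in FPKM in every library, with 114, 103 and 93.2 FPKM in vector 1, 2 and 3. In HMGB2 1, 2 and 3 it had 84.1, 84.9 and 88.7 FPKM. The shares are therefore not of all connexin RNA, and the lower Gja1 share would not hold with Gja4 in the sum. In CPM, which is not divided by length, Gja4 was below Gja1, with means of 176 against 494 CPM in vector and 144 against 791 CPM in HMGB2. The order of Gja4 and Gja1 thus depends on the scale used. Within each library, the ratio of Gja5 to Gja1 in CPM was 1.98-fold higher with HMGB2 (log2 ratio -4.63 ± 0.12 against -3.64 ± 0.08, exact two-sided permutation p = 0.1, 0.12 adjusted over 12 ratios). The ratio of Gjc1 to Gja1 was -3.75 ± 0.22 and -3.75 ± 0.04 on the log2 scale (exact permutation p = 1.0), the same mean with a wide spread in the vector group.

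**Figure D2:**
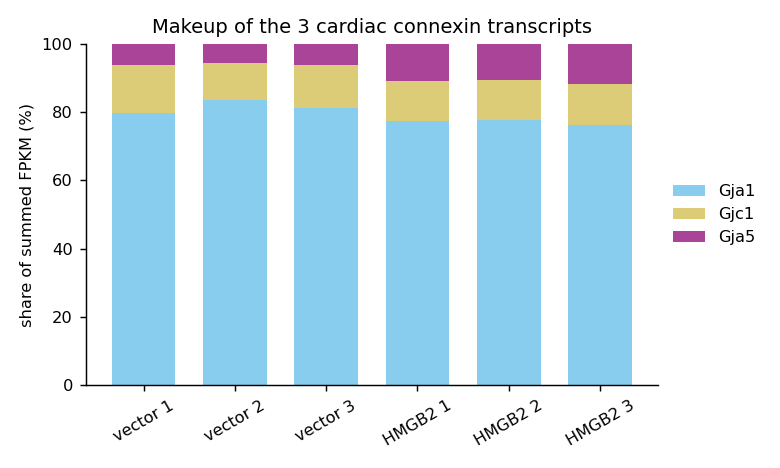
Share of Gja1, Gjc1 and Gja5 in the summed FPKM of these connexin transcripts, in percent, with 1 bar per library. The Gja5 segment takes 5.48% to 6.12% in the vector libraries and 10.6% to 11.6% in the HMGB2 libraries.

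The connexins Gja5 and Gja1, which both rose, are shown with the 250 bases before their RefSeq start, to let their upstream sequence be compared. Such windows were taken from RefSeq's table for GRCm38.p6 for 5 of the 10 genes. Windows of the other genes were not examined, so the count does not show what that table holds for them. The Gja5 window, chr3:97032152-97032401 on the plus strand, lies within the annotated Gja5 gene and overlaps none of its exons. The Gja1 window is chr10:56377050-56377299, plus strand, and overlaps no annotated gene. Capitals mark matches, on either strand, to any of 6 motifs that were searched: AGGTGT of T-box factors, TNAAGTG of NKX2-5, AGATAA of GATA factors, GGGCGG of SP1, TGANTCA of AP-1 and the MEF2 consensus.
Gja5: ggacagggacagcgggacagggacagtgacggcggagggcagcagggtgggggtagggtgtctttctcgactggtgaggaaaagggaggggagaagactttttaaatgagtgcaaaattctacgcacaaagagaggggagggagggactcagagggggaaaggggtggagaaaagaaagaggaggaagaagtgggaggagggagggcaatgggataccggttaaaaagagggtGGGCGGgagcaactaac
Gja1: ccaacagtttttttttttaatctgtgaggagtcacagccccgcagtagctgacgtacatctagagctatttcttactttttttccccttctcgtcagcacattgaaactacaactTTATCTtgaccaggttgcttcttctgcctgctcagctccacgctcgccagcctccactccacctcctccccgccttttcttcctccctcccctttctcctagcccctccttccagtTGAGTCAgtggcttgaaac

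Within these windows Gja5 had 1 match, SP1 at positions -17 to -12 from the start. Gja1 had a GATA match at -135 to -130 and an AP-1 match at -19 to -13. No stretch was shared by 2 motifs. Of 32851 RefSeq windows of the same length, 32.7% held the SP1 letters, 9.99% those of GATA and 6.75% those of AP-1. The T-box, NKX2-5 and MEF2 letters, in 11.8%, 10.1% and 2.92% of all windows, were in neither of these windows.

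Other connexin and pannexin genes did not share the rise. Of 20 such genes, 5 had no count in any library and 6 passed the filter on low counts, of which 2 fell and 4 did not pass the test, with a median log2 fold change of -0.30. Over all genes tested, 14.4% rose and 10.8% fell. Gja4, a connexin of endothelium, had 193, 176 and 158 CPM in the vector and 142, 143 and 147 CPM in the HMGB2 libraries (log2 fold change -0.29, SE 0.08, edgeR adjusted p = 0.0316). Gja3, a connexin best known from the lens, averaged 25.7 ± 1.45 and 20.7 ± 1.69 CPM, a log2 difference of -0.31 (SE 0.10, edgeR adjusted p = 0.0431). Both calls were fragile. Without vector 2, HMGB2 1 or HMGB2 2 neither gene passed, with edgeR adjusted p of 0.0959, 0.121 and 0.109 for Gja4 and 0.0636, 0.174 and 0.128 for Gja3. Gja4 also did not pass without HMGB2 3 (0.0501), nor Gja3 without vector 1 (0.0651) or vector 3 (0.124). With both vector 1 and HMGB2 3 left out, 3 of the listed genes fell, where 2986 of 15644 genes tested fell.

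In the adherens junction the 2 genes went apart. Cdh2 encodes N-cadherin, the classical cadherin that joins cardiomyocytes (ENSMUSG00000024304, chromosome 18, 16588877 to 16809246). Its values were 832, 907 and 874 CPM in the vector libraries and 779, 803 and 714 CPM in the HMGB2 libraries. All 3 HMGB2 libraries were lower, as for 18.9% of all genes tested, but by little. The difference was -0.19 on the log2 scale with a 95% interval of -0.35 to -0.02, and it missed the threshold after adjustment (edgeR adjusted p = 0.1002, unadjusted p = 0.0325). It passed without vector 1 (log2 fold change -0.22, edgeR adjusted p = 0.0386) and without vector 1 and HMGB2 3 together (-0.17, 0.000184).

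Ctnna3 encodes alpha-T-catenin, which links the cadherin complex to actin and also binds plakophilin 2 in the mixed junctions of the heart (ENSMUSG00000060843, chromosome 10, 63430098 to 65003667). It was the least expressed of the 10 genes, with 4.73, 6.35 and 7.44 CPM in the vector and 12.6, 11.6 and 10.8 CPM in the HMGB2 libraries. Vector 1 was lowest, and the groups did not overlap. Ctnna3 rose 1.88-fold (log2 fold change 0.91, SE 0.17, edgeR adjusted p = 0.00356), with a fold of 1.42 to 2.09 across the 15 other analyses. The lowest came from log2(FPKM + 1), where the added 1 shrinks the ratio of a gene at 0.65 to 1.74 FPKM. The next lowest log2 fold change was 0.7572, without vector 1.

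The other adherens genes were called about as often as genes in general, of which 25.2% were called. Of 21 tested, 2 rose, 4 fell and 15 did not pass, with a median log2 fold change of -0.10. Cdh3, which encodes P-cadherin, rose 2.79-fold, with means of 15.6 ± 1.23 and 43.5 ± 3.27 CPM (edgeR adjusted p = 1.01e-05). Ctnna1, the widely expressed alpha-catenin, rose 1.24-fold, with means of 1002 ± 6.47 and 1239 ± 21.3 CPM (edgeR adjusted p = 0.00715). Cdh6 fell by 1.93 on the log2 scale, with 7.67 ± 1.32 CPM in the vector and 2.02 ± 0.334 CPM in the HMGB2 group (edgeR adjusted p = 0.00016). Nectin1, an adhesion molecule of the immunoglobulin type, fell by 0.59 on the log2 scale, with group means of 17.2 ± 2.32 and 11.4 ± 0.814 CPM (edgeR adjusted p = 0.00808). The ratio of Ctnna3 to Ctnna1 was 1.55-fold higher with HMGB2 (exact two-sided permutation p = 0.1). The number that fell was 2 without HMGB2 1, and with both vector 1 and HMGB2 3 left out 5 rose and 9 fell. Calls were also more frequent over all genes in that last setting, where 3265 of 15644 rose and 2986 fell.

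Among the desmosome genes, desmoplakin and both desmosomal cadherins rose by similar amounts. Dsp encodes desmoplakin, which ties the desmosome to intermediate filaments (ENSMUSG00000054889, chromosome 13, 38151294 to 38198577). It had 231, 317 and 327 CPM in the vector and 553, 556 and 443 CPM in the HMGB2 libraries. The groups did not overlap, and vector 1 and HMGB2 3 were each the lowest of their group. Dsp rose 1.77-fold from 292 ± 53.1 to 517 ± 64.6 CPM (log2 fold change 0.83, SE 0.14, edgeR adjusted p = 0.00241), and the ratio was 1.72 without these libraries.

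The Dsp window of 250 bases before the RefSeq start is shown because it holds the T-box letters that the Gja5 and Gja1 windows lack. It lies at chr13:38151044-38151293, plus strand, and overlaps exon sequence of Gm10129, with capitals as above.
Dsp: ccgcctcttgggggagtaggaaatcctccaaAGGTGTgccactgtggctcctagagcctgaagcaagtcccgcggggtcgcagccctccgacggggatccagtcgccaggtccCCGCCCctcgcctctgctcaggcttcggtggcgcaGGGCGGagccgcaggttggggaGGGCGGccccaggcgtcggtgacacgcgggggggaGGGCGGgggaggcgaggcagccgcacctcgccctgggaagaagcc
Its T-box match is at positions -219 to -214, and it has 4 matches to SP1, the first at -137 to -132 and the last at -45 to -40. The T-box letters were also in the Jup window, at -19 to -14, and in a Ctnna3 window, at -146 to -141, neither of which is shown. Exon bases of Dsp shared with Gm10129, on the other strand, number 499, and Gm10129 had 76 counts in all 6 libraries together.

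Dsg2 and Dsc2 encode desmoglein and desmocollin, the cadherins that bridge the gap between cells. Dsg2 (ENSMUSG00000044393, chromosome 18, 20558074 to 20604521) had 22.3, 29.6 and 28.3 CPM in the vector and 47.7, 48.5 and 35.5 CPM in the HMGB2 libraries. HMGB2 3 was clearly below HMGB2 1 and 2 and still above all vector libraries. Dsg2 rose 1.64-fold (log2 fold change 0.71, SE 0.15, edgeR adjusted p = 0.00647). Dsc2 (ENSMUSG00000024331, chromosome 18, 20030633 to 20059554) was more even, with 25.4, 29.1 and 28.4 CPM against 48.8, 46.7 and 43.2 CPM. It rose 1.67-fold (log2 fold change 0.74, SE 0.09, edgeR adjusted p = 0.00035). The log2 ratio of Dsg2 to Dsc2 was -0.06 ± 0.11 with the vector and -0.09 ± 0.18 with HMGB2 (exact two-sided permutation p = 0.8), so any shift between these cadherins was smaller than the spread between libraries.

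Jup encodes plakoglobin, a catenin of both desmosomes and adherens junctions (ENSMUSG00000001552, chromosome 11, 100368958 to 100397763). It had 97.3, 93.7 and 103 CPM in the vector and 139, 137 and 129.7 CPM in the HMGB2 libraries, which did not overlap. It rose 1.38-fold (log2 fold change 0.46, SE 0.07, edgeR adjusted p = 0.00134), the smallest of the 8 rises. Against Ctnnb1, which encodes the related beta-catenin and did not pass the test (log2 fold change -0.09, SE 0.07, edgeR adjusted p = 0.422), the ratio of Jup was 1.46-fold higher with HMGB2 (exact two-sided permutation p = 0.1).

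Pkp2 encodes plakophilin 2, which joins the desmosomal cadherins to desmoplakin (ENSMUSG00000041957, chromosome 16, 16213318 to 16272712). The vector libraries had 137, 145 and 132 CPM and the HMGB2 libraries 138, 146 and 136 CPM, with the groups interleaved. The log2 difference was 0.02 (SE 0.07, edgeR adjusted p = 0.853), and its 95% interval ran from -0.14 to 0.18, or 0.91- to 1.13-fold. This interval does not reach the estimate of any of the other 4 desmosome genes. Within each library, Dsp, Dsc2 and Jup were 1.76-, 1.65- and 1.36-fold higher relative to Pkp2 with HMGB2, each without overlap between groups (exact two-sided permutation p = 0.1 each, 0.12 adjusted over 12 ratios).

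**Figure D3:**
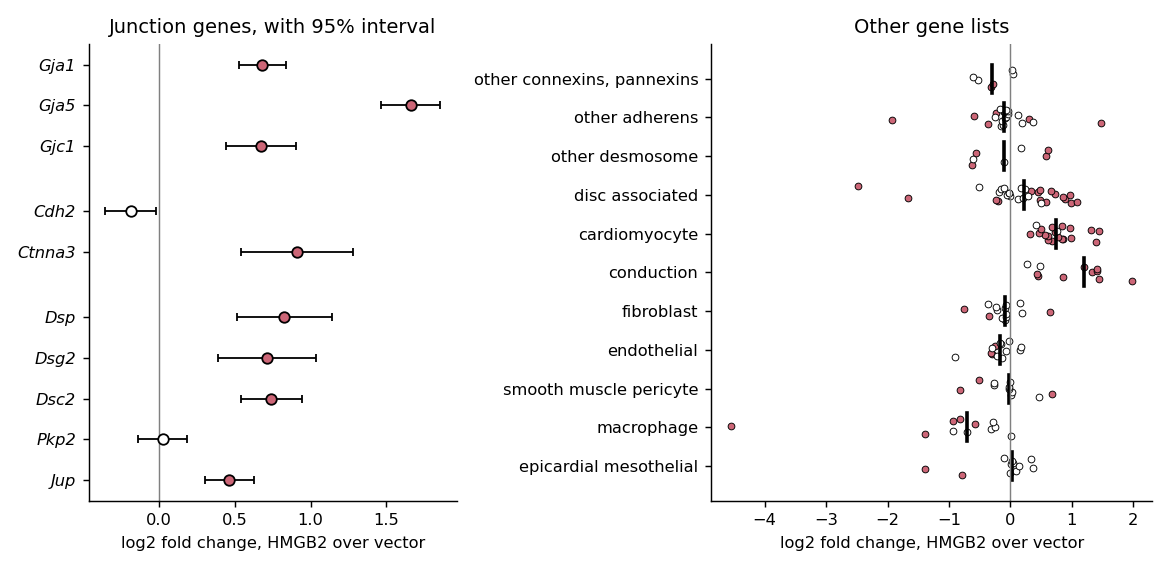
Left, log2 fold change (HMGB2 over vector) of each junction gene with its 95% interval, filled where the edgeR adjusted p was under 0.05. Right, each tested gene of the other lists with the same fill and a bar at the list's median, which is -0.30 for the other connexins and pannexins and 0.75 for the cardiomyocyte markers.

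The other desmosome genes did not move one way. Of 14 listed, 7 passed the filter on low counts, of which 2 rose, 2 fell and 3 did not pass the test. Over all genes tested, 14.4% rose and 10.8% fell. Des, the muscle intermediate filament desmin, was the most abundant, at 1338 ± 74.4 CPM with the vector and 867 ± 28.1 CPM with HMGB2, a log2 difference of -0.63 (SE 0.07, edgeR adjusted p = 0.000256). Perp rose 1.5-fold (81.0 ± 5.67 to 121 ± 10.9 CPM) and Ppl, periplakin, 1.52-fold (8.49 ± 0.767 to 13.0 ± 1.93 CPM). Pkp1, plakophilin 1, averaged 6.21 ± 0.58 and 4.22 ± 0.104 CPM, a log2 difference of -0.56 (edgeR adjusted p = 0.0235). Ppl did not pass without vector 2, HMGB2 1 or HMGB2 2 (edgeR adjusted p 0.0501, 0.0553 and 0.059). Pkp1 did not pass without vector 2, vector 3, HMGB2 1, HMGB2 2 or HMGB2 3 (0.056 to 0.0876). Des and Perp passed in all 15 other analyses.

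Of 30 genes of other disc proteins, 12 rose, 4 fell and 14 did not pass, with a median log2 fold change of 0.22. Of all genes tested, 14.4% rose and 10.8% fell. Bves, a membrane protein of the Popeye family, rose 2.12-fold, with means of 34.4 ± 2.40 and 72.7 ± 1.70 CPM (edgeR adjusted p = 1.61e-05). Nexn, an actin-binding protein, rose 1.66-fold, and Ldb3, a PDZ-LIM protein of the Z-disc and disc, 1.81-fold. Xirp2, which binds actin at the disc, was at 276, 453 and 512 CPM in the vector and at 80.7, 84.7 and 57.0 CPM in the HMGB2 libraries (log2 fold change -2.48, edgeR adjusted p = 0.000144). The number that fell was 2 without any 1 library other than vector 1, and 5 without vector 1. With both vector 1 and HMGB2 3 left out, 17 rose and 6 fell, where 3265 of 15644 genes tested rose and 2986 fell.

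Factors known to act on connexin genes were listed as well. Of 16, 5 rose, 1 fell and 10 did not pass, with a median log2 fold change of 0.25, where 14.4% of all genes tested rose and 10.8% fell. Irx3 rose 2.65-fold (7.37 ± 1.57 to 19.5 ± 0.781 CPM), Nkx2-5 2.2-fold (22.6 ± 4.01 to 49.6 ± 2.39 CPM), Hopx 1.92-fold and Tbx5 1.87-fold (18.6 ± 2.54 to 34.7 ± 2.29 CPM), with edgeR adjusted p between 0.00015 and 0.00135. Nkx2-5 and Tbx5 are cardiac factors known to activate Gja5, and Irx3 is a factor of the fast conduction system. Whether any of these factors had a part in the connexin changes was not tested. The single fall, in Hand2, was lost without vector 2, HMGB2 1 or HMGB2 2. With both vector 1 and HMGB2 3 left out 8 rose and 2 fell, where 3265 of 15644 genes tested rose and 2986 fell.

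The libraries differed in their cardiomyocyte content or in the RNA of these cells, which bulk samples cannot tell apart. Of 20 cardiomyocyte markers, 18 rose and 2 (Ryr2 and Ttn) did not pass, with a median log2 fold change of 0.75. Over all genes tested, 14.4% rose and 10.8% fell. With both vector 1 and HMGB2 3 left out, where 3265 of 15644 genes tested rose, all 20 markers rose. Their summed level was 14068 to 15687 CPM in the vector and 25478 to 27694 CPM in the HMGB2 libraries, a 1.79-fold higher mean, which was the same without vector 1 and HMGB2 3. None of the 20 was at 0. Tnnt2, the gene of cardiac troponin T, rose 1.79-fold, with means of 2398 and 4300 CPM (edgeR adjusted p = 0.000511).

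Each junction gene was also set against these markers, as its CPM per 1000 CPM of the marker sum. Myh6, Actc1 and Tnnt2 weigh most in the sum, with means of 6431, 6137 and 4300 CPM in the HMGB2 group. Folds of single markers ran from 1.26 (Myl3) to 2.71 (Pln), so the values below depend on the markers and their weights. Since that sum was higher with HMGB2, a gene with the same CPM in both groups comes to 0.557 of its vector value on this scale, and the median over all genes tested was 0.556. The HMGB2 libraries lay below the vector libraries without overlap for 79.7% of all genes tested and above them for 3.4%. Gja5 had 1.34 ± 0.143 with the vector and 2.35 ± 0.155 with HMGB2, a ratio of 1.76, and was higher in all 3 HMGB2 libraries. Dsp (19.3 ± 2.55 and 19.2 ± 1.54), Ctnna3 (0.409 ± 0.069 and 0.433 ± 0.018), Dsg2 (1.77 ± 0.177 and 1.62 ± 0.2) and Gjc1 (2.48 ± 0.444 and 2.19 ± 0.101) overlapped between groups. Gja1, Dsc2 and Jup were at 0.892, 0.931 and 0.768 of the vector mean, above the value of an unchanged gene, and their HMGB2 libraries lay below the vector libraries as for most genes. Pkp2, at 0.565, was near the value of an unchanged gene, and Cdh2, at 0.489, was below it. Without vector 1 and HMGB2 3 the ratios were 1.79 for Gja5, 0.909 for Gja1, 0.955 for Gjc1, 0.98 for Ctnna3, 0.963 for Dsp, 0.573 for Pkp2 and 0.496 for Cdh2. The part that the marker level has in the rises was not tested.

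**Figure D4:**
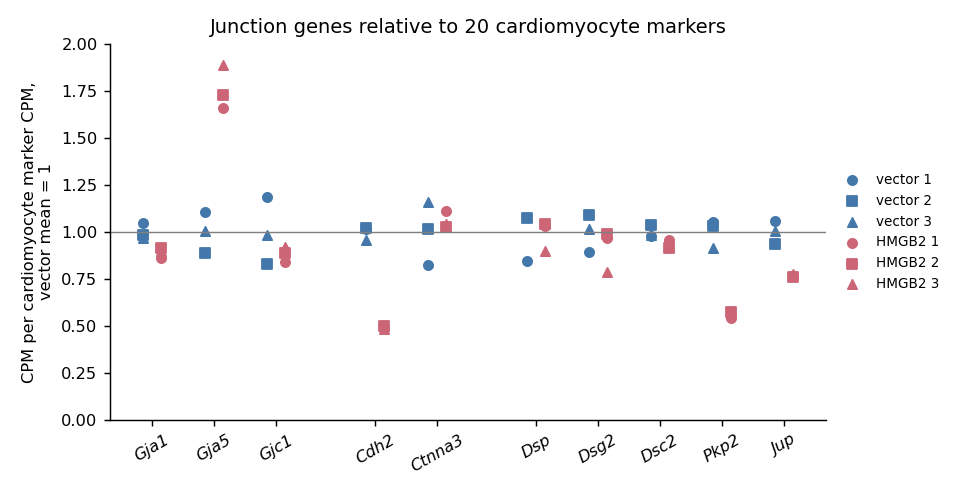
CPM of each junction gene divided by the summed CPM of 20 cardiomyocyte markers in the same library, scaled so that the vector mean is 1, with blue symbols for vector and red for HMGB2. Gja5 lies above 1 in the HMGB2 libraries, Cdh2 and Pkp2 are at 0.489 and 0.565 of the vector mean, and the other 7 genes lie between. A gene with unchanged CPM comes to 0.557.

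Markers of other heart cells were present too. Of 11 tested markers of the conduction system and nodes, 9 rose and 2 did not pass, with summed levels of 72.7 to 90.4 CPM in the vector and 146 to 176 CPM in the HMGB2 libraries. Endothelial markers, relevant since Gja5, Gja4 and Cdh2 are also expressed in vessels, summed to 5040 to 5173 CPM with the vector and 4265 to 4468 CPM with HMGB2, and 3 of 13 fell. Fibroblast markers summed to 6228 to 6428 and 5540 to 5703 CPM (1 rose and 2 fell of 14), smooth muscle and pericyte markers to 1828 to 1888 and 1830 to 1869 CPM (1 rose and 2 fell of 11). Epicardial markers summed to 262 to 293 and 240.2 to 253 CPM (2 of 11 fell) and macrophage markers to 101 to 133 and 73.6 to 87.6 CPM (5 of 11 fell). No marker of these 6 lists was at 0 in all libraries. Over all genes tested, 14.4% were called higher and 10.8% lower, 25.2% in all. The endothelial, fibroblast, smooth muscle and pericyte, and epicardial markers were called about as often as genes in general. Some of these counts moved with single libraries. The number of endothelial markers that fell was 0 without vector 2, vector 3 or HMGB2 2 and 1 without HMGB2 1, and that of fibroblast markers was 5 without vector 1 and 1 without HMGB2 1 or HMGB2 2. For smooth muscle and pericyte markers it was 4 without vector 1, and for macrophage markers 1 without vector 2 and 3 without vector 3, HMGB2 1 or HMGB2 3. With both vector 1 and HMGB2 3 left out, 9 endothelial, 7 fibroblast and 4 smooth muscle and pericyte markers fell. In that setting 3265 of 15644 genes tested rose and 2986 fell. No epicardial marker rose with all libraries, whereas 2 rose without vector 1 and 1 without both vector 1 and HMGB2 3. Which of these cells the junction transcripts came from was not tested.

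The levels of the 10 genes differed widely per unit length. In FPKM, the order in the vector libraries was Cdh2 (107 ± 3.94), Gja1 (47.7 ± 0.664), Dsp (29.9 ± 5.30), Pkp2 (25.5 ± 1.15), Jup (15.1 ± 0.77), Gjc1 (7.33 ± 1.06), Dsc2 (5.19 ± 0.335), Gja5 (3.45 ± 0.298), Dsg2 (3.20 ± 0.446) and Ctnna3 (0.847 ± 0.186). Of these neighbours, Dsp and Pkp2 overlapped between libraries, as did Gja5 and Dsg2. In the HMGB2 libraries Cdh2 (95.3 ± 4.99 FPKM), Gja1 (77.5 ± 3.41), Dsp (53.8 ± 6.34), Pkp2 (26.3 ± 0.886) and Jup (21.1 ± 0.601) kept this order, and Gja5 (11.1 ± 0.326) came above Dsc2 (8.80 ± 0.477), just below Gjc1 (11.8 ± 0.339).

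Summed over each kind of junction, gap junction genes made 56.8 to 59.6 FPKM in the vector and 97.9 to 105 FPKM in the HMGB2 libraries, and desmosome genes 71.8 to 82.6 and 105 to 121 FPKM. The adherens sum, nearly all Cdh2, was 104 to 112 and 91.3 to 101 FPKM. Among these members, the adherens sum was the highest in each vector library and the lowest in each HMGB2 library. In HMGB2 1 it was only just below the gap junction sum (98.4 against 98.8 FPKM). Ctnna1 (153 to 157 FPKM in vector, 190 to 199 in HMGB2) and Ctnnb1 (147 to 164 and 147 to 152 FPKM) were not in it. This order therefore depends on the members chosen and on the length used. Within each library, Gja1, Dsp and Ctnna3 were 1.82-, 2.03- and 2.18-fold higher relative to Cdh2 with HMGB2 (exact two-sided permutation p = 0.1 each).

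The length behind FPKM matters for these levels. It equals the length of all annotated exons of a gene together, 10257 bases for Gja1, whose longest coding transcript has 3182 bases. Per kilobase of the longest coding transcript, Gja1 had a mean of 155 CPM with the vector and 249 CPM with HMGB2, and Cdh2 180 and 158 CPM, so that Gja1 came above Cdh2 in the HMGB2 group on this scale and below it in FPKM. On that scale the Gja5 share of Gja1, Gja5 and Gjc1 together was 3.09% ± 0.208 and 5.93% ± 0.292, lower than in FPKM with the same direction. Changes of a single gene between groups do not depend on the length used.

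Transcript length was also related to how vector 1 and HMGB2 3 stood apart. Over the 10 genes, the log2 difference of vector 1 from vector 2 and 3 had a Spearman's rho of -0.76 with the length of the longest coding transcript, and that of HMGB2 3 from HMGB2 1 and 2 a rho of -0.82. With the exon length behind FPKM, rho was -0.54 and -0.64. These are descriptions over 10 genes of the same libraries. Dsp, with 9592 bases, had a log2 difference of -0.48 in vector 1 and -0.33 in HMGB2 3, and Dsg2 had -0.38 and -0.44. Ctnna3 had -0.54 in vector 1 and -0.15 in HMGB2 3, while Pkp2, with 2918 bases, had -0.02 and -0.06. Without both libraries the ratios of HMGB2 to vector were 3.20 for Gja5, 1.62 for Gja1, 1.71 for Gjc1, 1.75 for Ctnna3, 1.72 for Dsp, 1.66 for both Dsg2 and Dsc2, 1.40 for Jup, 1.03 for Pkp2 and 0.888 for Cdh2.

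**Figure D5:**
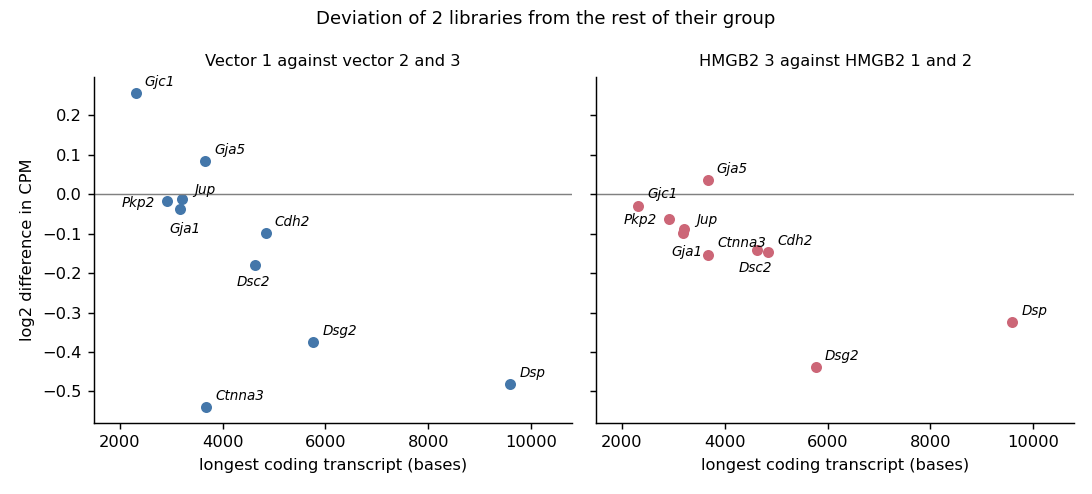
Log2 difference in CPM of vector 1 (left) and HMGB2 3 (right) from the mean of the other libraries of its group, against the length of the longest coding transcript in bases, with 1 point per junction gene. Dsp and Dsg2, the longest transcripts, lie at -0.33 or lower in both panels, and Pkp2 and Jup lie near 0.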

How the data were processed

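The submitters' processing notes name StringTie 1.3.3b, FastQC 0.10.1, HTSeq 0.6.1 and HISAT2 2.2.1, with build mm10 and no roles. They leave the strand setting unstated. The deposited counts are raw whole numbers per Ensembl gene. The authors' FPKM values are these counts per kilobase of annotated exon, scaled to the library total. Columns were matched to samples by group abbreviation and replicate number. Of 52073 table rows with an identifier in GENCODE M21 (GRCm38), 1472 had the same start and end, and none of the 10 junction genes did. The build of the table's positions is therefore uncertain, and those printed here come from GENCODE M21 through the gene identifier.

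Genes were tested with edgeR 4.0.16 (R 4.3.3): filterByExpr with a minimum count of 10 and a minimum total of 15, TMM scaling, a robust quasi-likelihood fit on group, and Benjamini-Hochberg adjustment over all 15429 genes. Intervals of fold changes are at 95%. Each SE was derived from the fold change and its F statistic. Alternatives used DESeq2 1.42.0 and limma 3.58.1. Single values and ratios were tested with an exact two-sided permutation test, which cannot go below 0.1. Shared sequence was searched with BLAST 2.17.0 (95% identity, 100 bases). The edgeR test was checked on simulated counts. It recovered 61.2% of 1.5-fold, 82.1% of 2-fold and 100% of 4-fold changes, and called 11 unchanged genes among 15200 fitted.

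The members and lists were chosen with earlier results of these data known. Named genes are the 10 junction genes, Hmgb2 and, per list, the 4 lowest p among genes that passed (if under 2 passed, the 2 most expressed). Marker lists are given by counts and sums. The marker-relative ratios without vector 1 and HMGB2 3 were chosen after seeing the data. Ctnnb1, Hand2, Tnnt2, Ryr2, Ttn, Zfp697, Gpr89 and Gm10129 were named after their values were seen. Ldb3 is on the disc and the cardiomyocyte list, Irx3, Tbx3 and Shox2 on the regulator and conduction lists, Tbx18 on the regulator and epicardial lists, and Cdh5 on the adherens and endothelial lists. Nothing states that the replicates came from separate cultures or animals, so p-values measure the spread between these libraries, which may be technical.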

Additional observations from a re-analysis of the deposited data

How the results depend on the processing

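The 8 rises kept direction and call in all 15 alternatives: DESeq2, limma-voom, DESeq2 size factors in edgeR, no filter on low counts, a minimum count of 50, log2(FPKM + 0.1) and log2(FPKM + 1) with limma, the replicate block, each library left out, and vector 1 and HMGB2 3 left out together. The number of junction genes called lower was 0 to 1 without 1 library and 1 without vector 1 and HMGB2 3 together, in each case Cdh2. At an unadjusted p under 0.05 (edgeR), 1 gene, Cdh2, had a lower value. After adjustment DESeq2 and limma-voom called 0 lower, with adjusted p of 0.0915 and 0.0776 for Cdh2, against 0.1002 with edgeR. Pkp2 changed sign without vector 3 (log2 fold change -0.01081) and without HMGB2 2 (-0.0069), and leaving out 1 library gave -0.01081 to 0.06083. Over all genes, 2224 were higher and 1662 lower. The number lower was 866 to 1960 without 1 library, at 866 without HMGB2 1, 897 without HMGB2 2 and 973 without vector 2, and 2986 without vector 1 and HMGB2 3 together. With the replicate number as a block, 1459 genes were higher and 754 lower, and Gja4, Gja3, Ctnna1, Ppl, Pkp1 and Hand2 did not pass. Deviations from the group means correlated at -0.318, 0.231 and -0.375 for replicate numbers 1, 2 and 3, and vector 1 correlated best with HMGB2 3 (0.521). With 3 libraries per group and vector 1 and HMGB2 3 standing apart, these correlations cannot tell whether same-numbered libraries were prepared together. The Gja5 share differed by 5.13 points in the paired form too (exact sign-flip p = 0.25, the smallest for 3 pairs), by 3.30 in CPM and by 2.84 per longest coding transcript, the last chosen after seeing the data. Depth limits Ctnna3 most, with 59 to 209 counts per library.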
